A study of Homo sapiens with 9 samples.

Results

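The sites described here are CCCGGG sites of the human genome that were highly methylated but not fully so, and that had few other CCCGGG sites around them. They were chosen by their measured values: a site on chromosomes 1 to 22 was taken if it had a methylation value in all 9 libraries, a mean of those values from 80 to 95%, no more than 2 other listed CCCGGG sites within 1000 bases, and no site with a mean under 5% within 1000 bases. By this rule 9364 sites were taken, which is 15.7% of the 59751 sites with a value in every library and 71.1% of the 13169 such autosomal sites with a mean of 80 to 95%. Another 3291 sites of that level (25.0%) were left out for having 3 or more neighbours, and 514 (3.90%) for lying near a site under 5%. The level of the chosen sites is therefore no finding, and neither is the absence of unmethylated sites beside them.

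Methylation was measured in genomic DNA of HEK293T cells, derived from human embryonic kidney and holding the SV40 T antigen, with 3 libraries for each of 3 groups: cells transfected with an empty pIRES plasmid, with a plasmid for the TET1 form called TET1-ALT, or with one for the form called TET1-FL. In all groups the plasmid was introduced with Lipofectamine 2000 and DNA was isolated 4 days later, so each group is a bulk culture of 1 cell line under transient expression. How many cells took up a plasmid, and how much TET1 they made, is not known from the values used here. A change in a few cells and a smaller change in many cells cannot be told apart.

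TET1 oxidises 5-methylcytosine, the first step of active demethylation, and the full-length protein has a CXXC domain that binds unmethylated CpG-rich DNA. The form in the title of the series lacks that domain. In mammalian cells most CpGs outside CpG islands carry the methyl mark, and the maintenance methyltransferase DNMT1 copies it onto the new strand after replication. The assay, digital restriction enzyme analysis of methylation (DREAM), uses a pair of enzymes that recognise CCCGGG. SmaI is applied first and is blocked by methylation of the CpG, and XmaI then opens the copies that SmaI left whole. The share of ends left by XmaI gives the methylation of the site in percent. Positions are given on hg19. No hg19 sequence or gene annotation was used here, so genes, exons and CpG islands at these sites were not analysed.

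The sparse sites were a particular part of what DREAM can read, because few isolated CCCGGG sites gave a value at all. Of 208254 listed autosomal sites with no other listed site within 1000 bases, 305 had a value in all 9 libraries (0.146%). The share was 24.5% of 80698 sites with 1 neighbour, 47.4% of 30659 sites with 2, and 62.3% of 38013 sites with 3 or more. Library fragments run from one CCCGGG site to another and were size selected, per the labels, and the part of that selection in these shares was not tested. Among the chosen sites 5672 (60.6%) had 1 neighbour, 3592 (38.4%) had 2 and 100 (1.07%) had none. The sites were spread over all 22 autosomes, from 145 on chromosome 18 to 821 on chromosome 1. As a share of the sites with 9 values they ranged from 12.9% on chromosome 5 (291 of 2264) to 19.3% on chromosome 22 (448 of 2316).

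The distance to a neighbour marked which neighbours were measured. The chosen sites had 12856 neighbours within 1000 bases, of which 8647 (67.3%) had all 9 values, 841 (6.54%) had some and 3368 (26.2%) had none. A neighbour was counted for each chosen site near it. Of the neighbours up to 100 bases away 47.1% had all 9 values (228 of 484), against 75.8% of those from over 100 to 500 bases (6697 of 8830) and 48.6% of those further out (1722 of 3542). In steps of 50 bases the share was 27.7% for the nearest, reached 87.3% between 100 and 150 bases, and was 27.7% again between 950 and 1000 bases.

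**Figure D1:**
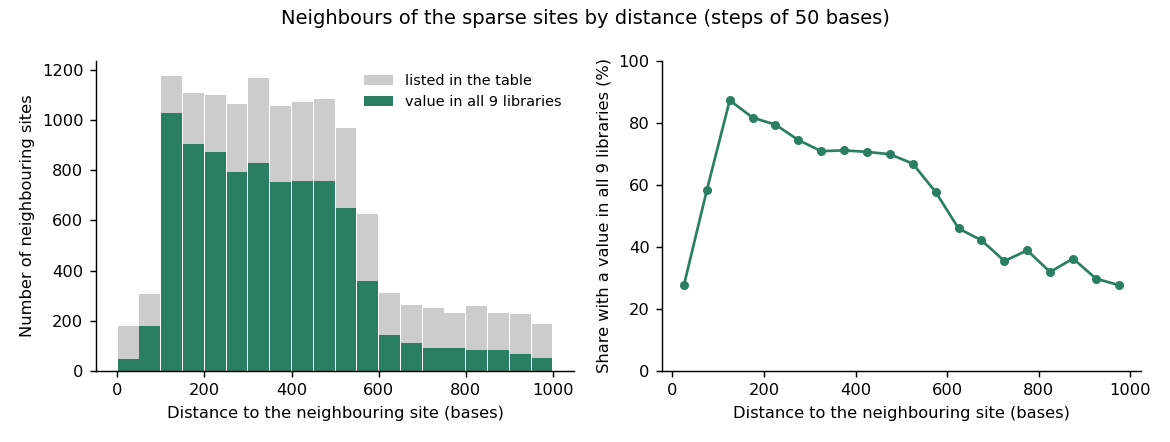
Neighbours of the sparse highly methylated sites by distance in bases, in steps of 50 bases: on the left the number listed (grey) and the number with a value in all 9 libraries (green), on the right the second as a percentage of the first. The share was 27.7% in the first step, highest at 87.3% between 100 and 150 bases, and 27.7% in the last step.

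Most measured neighbours were themselves methylated, which follows in part from the rule, since it barred any with a mean under 5%. Of the 8647 neighbours with 9 values, 4122 (47.7%) had a mean of 80 to 95%, 1500 (17.3%) were over 95%, 2828 (32.7%) lay from 20 to 80% and 197 (2.28%) from 5 to 20%. Of the 4122, 3702 were chosen sites themselves, and each such pair was counted from both of its sites. At least 1 measured neighbour was present for 7107 of the chosen sites (75.9%), and 3477 (37.1%) had a neighbour that was itself one of the chosen sites. Intermediate sites of 20 to 80% thus made up 32.7% of the measured neighbours. These shares were not set beside those for the neighbours of other sites.

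Neighbouring chosen sites, both held to 80 to 95% by the rule, often differed within that range. The 1851 pairs of chosen sites within 1000 bases differed by a median of 3.74 percentage points in their mean level. In 447 pairs (24.1%) the 9 values of one site all lay above the 9 of the other. Across these pairs the correlation of the 2 levels was 0.0864, and that of the 2 differences between TET1-FL and the empty vector was 0.0685. Across the 497 pairs from over 50 to 200 bases apart the correlations were 0.233 and 0.108. Pairs share their libraries, may be the 2 ends of the same fragments, and hold levels confined to 80 to 95% by the rule, so these correlations are descriptions.

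The 3 closest pairs at 50 bases or more are given as examples. Over all pairs within 1000 bases the largest gap was 14.4 points. On chromosome 19 the sites at 41135398 and 41135448 had means of 94.5% and 94.6%, and on chromosome 3 the sites at 183887876 and 183887948 had 92.6% and 94.9%. The third pair, at 14262068 and 14262135 on chromosome 19, had 82.2% and 89.2%. The first and second pairs were thus nearly level. In the third the means were several points apart, but the values of its sites overlapped. The site at 14262068 ran from 63.9 to 98.0% (pooled SD 9.69) and that at 14262135 from 86.5 to 92.2%.

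Within the chosen range the sites were unevenly spread, with more of them at the upper end. Means from 80 to 85% were found at 2137 sites, from 85 to 90% at 3086 and from 90 to 95% at 4141. All 9 values lay within 80 to 95% at 4665 sites (49.8%), and all 9 were 80% or more at 7308 (78.0%). At the lower bound the sites just inside, at 105363779 on chromosome 14 and 29831971 on chromosome 6, had means at or within 0.01 points of it. Just outside it, the sites at 3217803 on chromosome 11 and 9559642 on chromosome 12 had 79.99% and 79.97%. At the upper bound the sites just inside (130185804 on chromosome 11, 3286083 on chromosome 6) and just outside (9593744 on chromosome 1, 36508907 on chromosome 22) all had means within 0.01 points of it.

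Replicate error was larger at the less methylated of these sites. The SD between replicates, pooled within groups, had a median of 2.07 percentage points per site with the middle 50% of sites from 1.47 to 2.99. It was 2.54 at sites of 80 to 85%, 2.22 at 85 to 90% and 1.75 at 90 to 95%. By group the median SD was 1.83 in the empty vector, 1.78 in TET1-ALT and 1.85 in TET1-FL. Sites of 20 to 80% that were otherwise chosen by the same rule had a median of 2.98, and sites of 80 to 95% with 3 or more neighbours had 1.82. A difference of a few points at a single site was therefore within the scatter of 3 libraries.

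The sparse sites were on average slightly less methylated in the cells with TET1-FL. The mean over the 9364 sites was 89.29, 89.35 and 88.85% in the empty vector libraries, 89.31, 88.73 and 88.50% in TET1-ALT, and 87.75, 88.17 and 88.00% in TET1-FL. Every TET1-FL library was below every library of the other groups, while the TET1-ALT and empty vector libraries overlapped. The group means were 89.2% ± 0.271 (SD, n = 3) in the empty vector, 88.8% ± 0.417 in TET1-ALT and 87.97% ± 0.207 in TET1-FL.

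TET1-FL was 1.19 percentage points below the empty vector (difference -1.19), and the 9 differences between single libraries ran from -1.59 to -0.685. Centred on the sites over 95% in each library, the difference was -0.840 (-1.18 to -0.484). TET1-ALT differed from the empty vector by -0.317, with single differences from -0.842 to 0.459, so its direction was not settled by these libraries. It was -0.549 without the first TET1-ALT library and -0.145 without the third, and -0.472 without the third empty vector library. TET1-FL differed from TET1-ALT by -0.873, with single differences from -1.56 to -0.337. Both TET1 forms are compared with the same empty vector libraries. The labels do not say whether replicates came from separate cultures, so the spread, and every p given here, covers only the variation between these libraries, which may be technical. An exact permutation test of 3 libraries against 3 cannot give a two-sided p below 0.1.

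**Figure D2:**
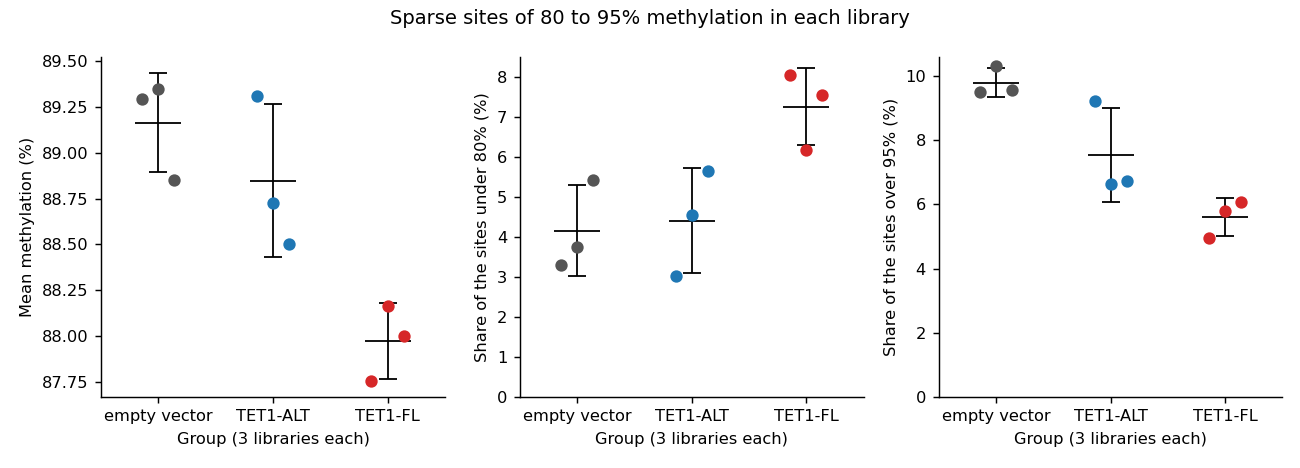
From left to right, the mean methylation of the 9364 sparse sites (percent, axis not from 0), the percentage of them under 80% and the percentage over 95%, with 1 point per library and the mean ± SD of 3 libraries in black. The 3 TET1-FL libraries have means of 87.75 to 88.17%, below the 88.50 to 89.35% of the other 6.

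Expressed as the unmethylated share, the mean was 10.8% with the empty vector and 12.03% with TET1-FL, a ratio of 1.11. The ratio was 1.03 for TET1-ALT against the empty vector and 1.08 for TET1-FL against TET1-ALT. The methylated share was 0.987 times that of the empty vector in TET1-FL. One difference in points is a larger ratio in the unmethylated share because that share is the smaller.

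Counts of values beyond the bounds of the rule, 80 and 95%, restate the difference in the mean and are no separate support for it. In the empty vector libraries 309, 350 and 509 of the sites had a value under 80%, in TET1-ALT 284, 425 and 529, and in TET1-FL 753, 578 and 708. TET1-FL libraries had more such sites than any other library. Values over 95% were found at 890, 966 and 896 sites with the empty vector, at 864, 621 and 631 with TET1-ALT, and at 463, 544 and 568 with TET1-FL. Here TET1-FL libraries had fewer than any other, and 1 TET1-ALT library lay close to the empty vector while the other 2 lay between. The third empty vector library had fewer sites with a value over the whole table, 61549 against 66010 to 72340 in the other 8.

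Rows on sequences outside the genome were taken here to be the spiked-in standards with which the authors corrected the values. The labels mention 5 standards without naming them, so this is not certain. Of these 18 rows on 8 sequences, 10 were lower and 8 higher in TET1-FL than in the empty vector, by -1.72 to 2.497 percentage points with a mean of 0.0883. In 2 of them the TET1-FL libraries were all below the empty vector libraries, and in 0 all above. The row among them closest in level to the sparse sites read 88.1, 88.1 and 88.4% with the empty vector, 88.9, 89.5 and 87.98% with TET1-ALT, and 88.4, 88.5 and 87.6% with TET1-FL. Its TET1-FL libraries overlapped the empty vector libraries and differed from them by -0.0167 on average. If the values were corrected with these rows, likeness between groups here may come from the correction. The rows are then no separate check on the shift.

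Site by site, the shift appeared as a small displacement of the whole distribution. TET1-FL was lower than the empty vector at 6864 of the 9364 sites (73.3%), with a median difference of -1.20 percentage points and the middle 50% of sites from -2.55 to 0.107. Over all 59751 sites 66.6% were lower, with a median of -0.183. Differences of at least 5 points were lower at 452 sites and higher at 140, and those of at least 10 points lower at 24 and higher at 15. The SD of the differences over sites was 2.46 points, against 2.35 that the replicate spread alone would give.

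TET1-ALT was lower than the empty vector at 5463 sites (58.3%), with a median of -0.370, beside 56.4% and -0.0367 over all sites. Differences of at least 5 points were lower at 245 and higher at 188. TET1-FL was lower than TET1-ALT at 6414 sites (68.5%), with a median of -0.850, beside 60.7% and -0.0667 over all sites, and differences of at least 5 points were lower at 308 and higher at 88. The SD over sites was 2.34 points for TET1-ALT minus empty vector and 2.18 for TET1-FL minus TET1-ALT, against 2.28 and 2.16 from the replicate spread.

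**Figure D3:**
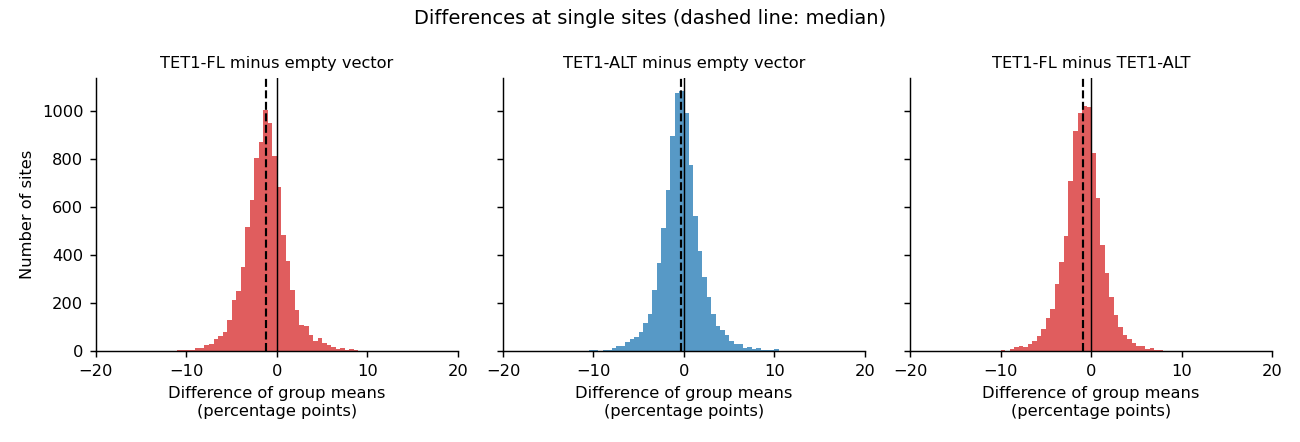
Distribution over the 9364 sparse sites of the difference of group means (horizontal axis, percentage points; vertical axis, number of sites) for each of the 3 comparisons. The medians are -1.20 for TET1-FL minus empty vector, -0.370 for TET1-ALT minus empty vector and -0.850 for TET1-FL minus TET1-ALT.

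No single site passed a test across the table. With limma on the percentages and Benjamini-Hochberg adjustment over all 59751 sites, 0 of the sparse sites were called at an adjusted p under 0.05 in any of the 3 comparisons, and 0 sites over the whole table (0% called). The smallest adjusted p among the sparse sites was 0.287 for TET1-FL minus empty vector, 0.652 for TET1-ALT minus empty vector and 0.830 for TET1-FL minus TET1-ALT. In simulated data of 59751 sites, 50 sparse sites per size had a known TET1-FL difference from the empty vector and the others had none. The limma fit called 6% of the sites with a true difference of -5 points, 32% with -10, 82% with -20 and 94% with -30. It also called 4 sites without a true difference. The real values shifted at many sites, unlike the simulated ones, so these shares need not hold for them.

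Without adjustment, limma gave a p under 0.05 at 1139 sparse sites that were lower in TET1-FL than in the empty vector (12.2%, against 9.72% of all sites) and at 100 that were higher (1.07%, against 1.11%). For TET1-ALT minus empty vector the counts were 429 lower (4.58%, against 5.49%) and 182 higher (1.94%, against 1.73%). For TET1-FL minus TET1-ALT they were 658 lower (7.03%, against 4.46%) and 104 higher (1.11%, against 1.1%). For TET1-ALT minus empty vector, and for higher sites in each comparison, these shares lay near those of the whole table. The share of lower sites was larger than there for TET1-FL minus empty vector (12.2%, against 9.72%). It was also larger for TET1-FL minus TET1-ALT (7.03%, against 4.46%). The gaps were not tested. When each library was centred on the sites over 95%, the counts for TET1-FL minus empty vector became 744 lower (7.95%, against 4.48% of all sites) and 163 higher (1.74%, against 23.6%). Higher sites then made up 18.0% of the sparse sites under 0.05 in place of 8.07%, and 84.1% in place of 10.2% over the whole table, so that the balance turned there and not among the sparse sites. For TET1-FL minus TET1-ALT they made up 24.6% in place of 13.6% among the sparse sites, and 89.2% in place of 19.7% over the table. The centring shifts every site of a library by one amount, unmethylated sites included.

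Sites were also counted where the libraries of the compared groups did not overlap. TET1-FL lay wholly below the empty vector at 1513 sparse sites (16.2%), where the share over all sites was 14.9%, and wholly above at 160 (1.71%), against 2.13%. TET1-ALT lay wholly below the empty vector at 685 (7.32%), against 10.1%, and above at 311 (3.32%), against 3.14%. TET1-FL lay wholly below TET1-ALT at 1006 (10.7%), against 7.36%, and above at 193 (2.06%), against 1.94%. For TET1-FL against the empty vector the share of sparse sites wholly below was near that of the whole table. It was also near the 16.7% of sites of 80 to 95% with 3 or more neighbours and the 17.2% of sparse sites of 20 to 80%. Sites of 80 to 95% near a site under 5% had 13.8%, below the share of the whole table. For TET1-FL wholly below TET1-ALT, the 3 sets in that order had 10.6%, 11.4% and 11.9%. For TET1-ALT wholly below the empty vector, the same sets in that order had 8.20%, 7.51% and 7.59%. The gaps to the whole table in the comparisons with TET1-ALT were thus shared by the like sets.

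The difference was not concentrated on a few chromosomes. The mean of the sparse sites was lower in TET1-FL than in the empty vector on all 22 autosomes, from -1.49 on chromosome 7 (87.8% ± 0.333 against 89.3% ± 0.222, SD, n = 3, 497 sites) to -0.902 on chromosome 6 (88.4% ± 0.396 against 89.3% ± 0.377, 366 sites). The libraries did not overlap on 21 of them, all but chromosome 13. Over all measured sites they did not overlap, with TET1-FL lower, on 100% of the autosomes and, with TET1-FL higher, on 0%. TET1-ALT differed from the empty vector by -0.600 on chromosome 20 to -0.0582 on chromosome 12, with overlapping libraries on each autosome, and 0% of autosomes without overlap over all sites either. TET1-FL minus TET1-ALT ran from -1.11 on chromosome 12 to -0.576 on chromosome 20. Those libraries did not overlap on 18 autosomes, where the share over all sites was 95.5%, and overlapped on chromosomes 6, 13, 20 and 21.

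Windows of 1 Mb with at least 10 sparse sites gave a finer view. The 271 such windows held 5476 of the sites. Window means were lower in TET1-FL than in the empty vector in 262 (96.7%), with a median of -1.20 and a range of -3.04 to 0.910. The libraries did not overlap in 143 windows where TET1-FL was lower (52.8%) and in 0 where it was higher. Over 1357 windows of all measured sites, a larger set of windows that includes unmethylated sites, the shares were 47.3% and 0.884%. The comparisons below use that same larger set. For TET1-ALT minus empty vector 207 windows (76.4%) were lower, with a median of -0.368, and the libraries did not overlap in 28 lower (10.3%, against 11.1%) and 3 higher (1.11%, against 1.92%). For TET1-FL minus TET1-ALT 259 (95.6%) were lower, with a median of -0.871, and the libraries did not overlap in 96 lower (35.4%, against 30.4%) and 0 higher (against 0.884%).

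The windows at the extremes had few sites each. The lowest, from 30000001 to 31000000 on chromosome 22 with 11 sites, had 87.4% ± 2.29 with the empty vector and 84.4% ± 1.00 with TET1-FL (SD, n = 3), and its libraries overlapped. The next, from 34000001 to 35000000 on chromosome 19 with 11 sites, had 87.4% ± 0.328 with the empty vector, 87.4% ± 0.931 with TET1-ALT and 84.4% ± 1.22 with TET1-FL, without overlap between TET1-FL and the empty vector. From 129000001 to 130000000 on chromosome 9, 12 sites had 90.7% ± 0.442 with the empty vector and 87.98% ± 0.628 with TET1-FL, again without overlap. The highest window was directly beside the lowest, from 31000001 to 32000000 on chromosome 22, where 12 sites had 87.6% ± 2.00 with the empty vector and 88.5% ± 0.767 with TET1-FL, with overlap. Both windows of chromosome 22 thus had widely spread empty vector libraries.

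The difference lay below 0 whatever the number of neighbours. TET1-FL minus empty vector was -0.868 at the 100 sites with no neighbour (single library differences -1.39 to -0.280), -1.18 at sites with 1 (-1.62 to -0.639) and -1.21 at sites with 2 (-1.58 to -0.741). Sites with 2 neighbours differed from those with 1 by -0.0226 in this comparison, with a range over libraries of -0.141 to 0.146, so the direction of that gap was not settled. TET1-ALT minus empty vector was -0.0154, -0.289 and -0.369 for 0, 1 and 2 neighbours, and in each case its libraries overlapped those of the empty vector.

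In points, the difference was larger at the less methylated of the sites. At sites of 80 to 85% the empty vector libraries averaged 83.3% and the TET1-FL libraries 81.7%, a difference of -1.59 (-2.11 to -0.890). At 85 to 90% the difference was -1.29 (-1.75 to -0.781) and at 90 to 95% it was -0.904 (-1.21 to -0.508). The gap between the lowest and the highest of these levels was -0.691, with a range over libraries of -0.906 to -0.381 that left out 0. In the unmethylated share the order was the opposite, with ratios of 1.10, 1.11 and 1.13 from the lowest level to the highest. For TET1-ALT minus empty vector the 3 levels gave -0.438, -0.306 and -0.263, each with overlapping libraries.

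The difference varied little with the methylation of the nearest measured neighbour. TET1-FL minus empty vector was -1.35 at the 145 sites whose nearest measured neighbour was at 5 to 20%, -1.20 at 2309 sites with a neighbour of 20 to 80%, -1.22 at 3442 with one of 80 to 95%, -1.23 at 1211 with one over 95%, and -1.09 at 2257 with none measured. In 4 groups of like size by the number of listed CCCGGG sites in their megabase, from the emptiest to the fullest, it was -1.10, -1.22, -1.23 and -1.21. TET1-FL libraries were below the empty vector libraries in each of these subgroups.

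**Figure D4:**
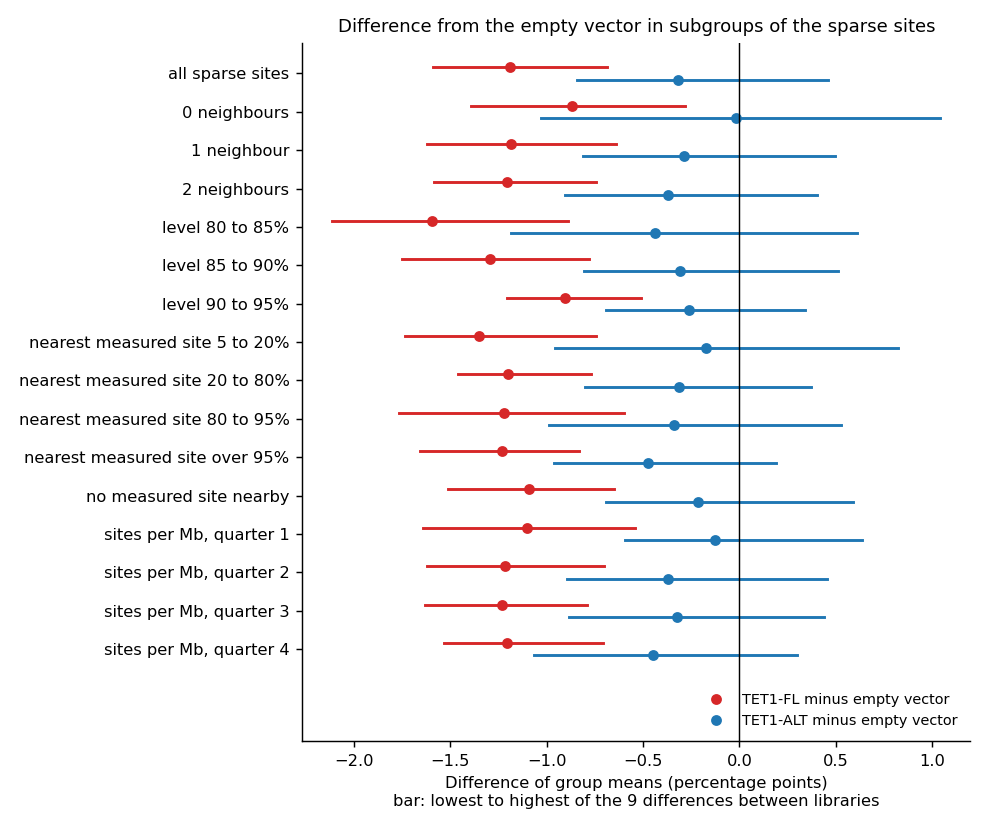
Difference from the empty vector (horizontal axis, percentage points) in subgroups of the sparse sites, for TET1-FL (red) and TET1-ALT (blue); points are differences of group means and bars run from the lowest to the highest of the 9 differences between single libraries. Every TET1-FL bar lies below 0, and the blue bars of TET1-ALT cross 0.

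The sparse sites were then compared with similar sites elsewhere. Sites of 80 to 95% with 3 or more neighbours and no site under 5% nearby differed by -1.16 between TET1-FL and the empty vector. The sparse sites exceeded this by -0.0340, with a range over libraries of -0.156 to 0.0971, and so were not told apart from them. For TET1-ALT minus empty vector the dense sites had -0.422, and the gap of 0.105 had a range of 0.0173 to 0.189. For TET1-FL minus TET1-ALT the gap was -0.139, with a range of -0.255 to -0.0108. Both of these ranges left out 0.

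Sites of 80 to 95% within 1000 bases of a site under 5% had a difference from the empty vector of -1.32 with TET1-FL and of -0.388 with TET1-ALT. The sparse sites were above them by 0.130 in the first comparison, with a range of -0.217 to 0.512, and by 0.0715 in the second. Neither gap was larger than the spread between libraries. Sparse sites of 20 to 80%, by contrast, had 57.8% with the empty vector and 55.8% with TET1-FL, a difference of -1.97. The highly methylated sparse sites were above this by 0.784, with a range of 0.455 to 1.18. In ratio the order depended on the share used: the methylated share in TET1-FL was 0.966 times that of the empty vector at sites of 20 to 80% and 0.987 times at the highly methylated sites, and the unmethylated share 1.05 and 1.11 times.

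Single sites with the largest differences are given next as descriptions, since they were selected on those differences among sites whose libraries did not overlap. The most negative difference was at 132166657 on chromosome 9, which read 90.5, 91.0 and 93.1% with the empty vector, 79.95, 84.6 and 73.9% with TET1-ALT, and 67.1, 77.5 and 77.8% with TET1-FL. Both TET1 groups lay wholly below the empty vector there, by -17.4 (limma SE 3.53, adjusted p = 0.381) for TET1-FL and -12.1 for TET1-ALT. At 58991829 on chromosome 19 the values were 89.4, 95.2 and 97.7% with the empty vector, 83.2, 78.0 and 89.9% with TET1-ALT, and 83.9, 74.1 and 77.6% with TET1-FL. TET1-FL was lower there by -15.6, with TET1-ALT in between on average.

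At 61021405 on chromosome 20 the empty vector libraries read 90.7, 94.4 and 97.6%, TET1-ALT 86.6, 92.0 and 83.6%, and TET1-FL 80.4, 78.0 and 80.4%, a difference of -14.7 for TET1-FL. The TET1-FL libraries were close together there and below all others. At 1141856 on chromosome 1 the values were 83.1, 86.5 and 98.0%, then 84.3, 70.2 and 75.8%, then 74.8, 79.2 and 71.0% in the same order of groups, a difference of -14.2. At 1495312 on chromosome 7 they were 86.3, 84.5 and 98.0%, then 87.9, 90.4 and 73.3%, then 78.5, 79.4 and 68.4%, also -14.2. At both of these sites the third empty vector library read 98.0% and stood well above the other 2.

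At 147496127 on chromosome 6 the empty vector libraries read 90.5, 96.1 and 92.9%, TET1-ALT between 79.3 and 84.5%, and TET1-FL 70.9, 86.9 and 82.4%. Its difference of -13.1 became -8.50 without the first TET1-FL library. At 1064579 on chromosome 1 the values were 94.9, 92.2 and 98.5%, then 88.5, 93.3 and 93.8%, then 78.2, 86.9 and 81.5%, a difference of -13.0. At 129686211 on chromosome 11 they were 94.3, 95.2 and 94.6%, then 94.7, 93.8 and 90.5%, then 81.5, 78.7 and 85.7%. Here TET1-FL differed by -12.7 (limma SE 1.81, adjusted p = 0.299) while TET1-ALT stayed within a few points of the empty vector.

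Differences in the other direction were as large but fewer. At 9113235 on chromosome 11 the empty vector libraries read 58.6, 79.4 and 67.7%, TET1-ALT 84.8, 86.3 and 88.2%, and TET1-FL 87.7, 87.6 and 86.2%. Both TET1 groups were above the empty vector, by 17.9 for TET1-ALT and 18.6 for TET1-FL, with the scatter in the empty vector libraries. At 70582036 on chromosome 10 the values were 69.4, 84.7 and 74.7%, then 90.2, 92.1 and 88.2%, then 90.6, 89.6 and 94.4%, which is 13.9 and 15.3 above. The 2 sites behave alike in that all 6 libraries with a TET1 plasmid lay above all 3 without.

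At 131784633 on chromosome 9 the empty vector libraries read 72.9, 83.9 and 75.3%, TET1-ALT 88.2, 87.1 and 81.6%, and TET1-FL 92.9, 91.8 and 92.0%, a difference of 14.9 for TET1-FL. At 121328967 on chromosome 2 the values were 81.9, 83.4 and 66.5%, then 85.1, 92.4 and 82.7%, then 92.5, 92.6 and 87.3%. The difference of 13.5 for TET1-FL at this site became 8.13 without the third empty vector library. In these 2 sites, too, the empty vector libraries were the lowest on average.

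**Figure D5:**
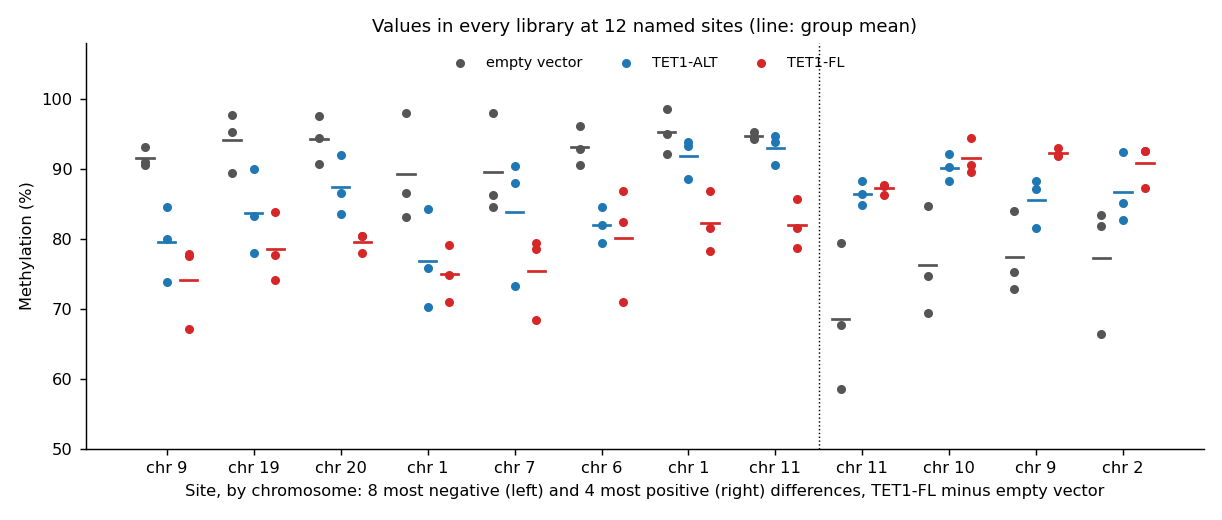
Methylation in each of the 9 libraries (vertical axis, percent) at the 12 sparse sites with the largest non-overlapping differences between TET1-FL and the empty vector, named by chromosome, with 1 point per library. The 8 sites with lower TET1-FL values differ by -17.4 to -12.7 points and the 4 with higher values by 13.5 to 18.6.

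For TET1-ALT against the empty vector, the most negative sites beside that on chromosome 9 were 2 on chromosome 17 and 1 on chromosome 10. At 58498794 on chromosome 17 the empty vector libraries read 98.4, 98.1 and 93.8%, TET1-ALT 74.5, 89.1 and 86.1%, and TET1-FL 80.7, 87.4 and 88.3%, a difference of -13.6 for TET1-ALT. At 79420885 the values were 96.3, 90.1 and 97.2%, then 77.2, 87.7 and 79.0%, then 84.7, 85.5 and 83.1%, a difference of -13.2. At both of these sites TET1-FL was also below the empty vector in every library.

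At 21337327 on chromosome 10 the groups did not follow that pattern. The empty vector libraries read 93.8, 85.8 and 93.4%, TET1-ALT 78.0, 79.3 and 77.9%, and TET1-FL 98.5, 92.2 and 79.6%. TET1-ALT was -12.6 from the empty vector, and TET1-FL was 11.7 above TET1-ALT, which became 7.49 without the first TET1-FL library. At 8207560 on chromosome 4 the empty vector read 84.3, 78.4 and 64.4%, TET1-ALT 93.01, 87.9 and 90.1%, and TET1-FL 87.6, 86.5 and 89.0%. Its difference of 14.6 for TET1-ALT became 8.97 without the third empty vector library.

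Between the TET1 forms, the most negative site was at 49660557 on chromosome 12. There the empty vector read 87.0, 88.03 and 90.5%, TET1-ALT 89.8, 96.7 and 92.3%, and TET1-FL 80.3, 80.6 and 75.1%, so that TET1-FL was -14.3 from TET1-ALT (limma SE 2.19, adjusted p = 0.830). TET1-FL was below both other groups in every library. At 14262068 on chromosome 19 the values were 79.2, 74.7 and 95.7%, then 86.5, 81.8 and 98.0%, then 79.0, 81.4 and 63.9%. The difference of -14.0 at this site became -8.57 without the third TET1-FL library, and each group had one library far from its other 2.

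At 141015117 on chromosome 9 TET1-ALT read 88.2, 92.5 and 97.7% and TET1-FL 71.4, 82.1 and 85.9%, a difference of -13.0. At 56115539 on chromosome 12 TET1-ALT read 85.4, 94.7 and 91.2% and TET1-FL 66.6, 83.8 and 83.6%, and the difference of -12.4 became -6.74 without the first TET1-FL library. In the other direction, at 50561621 on chromosome 20, TET1-ALT read 83.3, 80.9 and 75.1% and TET1-FL 96.9, 88.4 and 86.9%, a difference of 10.9. At 27216009 on chromosome 15 TET1-ALT read 84.3, 84.96 and 68.7% and TET1-FL 92.1, 90.6 and 87.4%, and the difference of 10.7 became 5.41 without the third TET1-ALT library. At all 4 of these sites the mean of the empty vector lay between those of the TET1 forms.

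The steadiest and the most scattered sites show what the replicate error can be. At 40058510 on chromosome 17 the libraries read 93.6, 93.6 and 93.5% with the empty vector, 94.2, 93.7 and 93.3% with TET1-ALT, and 92.6, 92.9 and 92.9% with TET1-FL, with a pooled SD of 0.29. At 235573270 on chromosome 1 they read 95.1, 95.3 and 95.6%, then 93.7, 93.6 and 93.1%, then 94.0, 93.8 and 93.2%, with an SD of 0.35. At 134032140 on chromosome 3 they read 94.9, 95.3 and 95.1%, then 94.7, 93.9 and 93.7%, then 93.1, 93.6 and 93.5%, with an SD of 0.38. At each of these 3 sites every TET1-FL library was below every empty vector library. Every TET1-ALT library was also below them at the sites on chromosomes 1 and 3. Sites picked for a small SD separate groups more readily, so this is a description. Over all sparse sites TET1-FL lay wholly below the empty vector at 16.2%, and over the whole table at 14.9%.

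The most scattered site, at 88398393 on chromosome 6, read 89.0, 68.9 and 79.1% with the empty vector, 87.6, 73.5 and 81.6% with TET1-ALT, and 67.2, 91.9 and 90.3% with TET1-FL. Its pooled SD was 10.7, and those of the sites at 69097101 on chromosome 16 and 61289446 on chromosome 20 were 10.4 and 10.3. All groups overlapped at the first of these sites, where a difference of the size of the mean shift could not be seen.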

How the data were processed

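DNA methylation was measured by DREAM in 9 libraries, 3 per group. Per the labels, the authors took the percent methylation of each CCCGGG site from methylated and unmethylated reads, corrected it with spiked-in standards, and required at least 20 reads per site. Sites are on hg19, per the submitters' processing notes. For the aligner and caller, the name and version were not given in the sources used here. Read depth per value is otherwise unknown, so no interval from depth is given.

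From the deposited percent values, limma 3.58.1 (R 4.3.3, trend and robust moderation) was fitted to the 59751 sites with 9 values, with a mean per group, and p-values were adjusted by Benjamini-Hochberg over all of them. Means over sites were compared by library, with the range of the 9 pairwise differences. The members and lists were chosen with earlier results of these data known. Named sites are, among non-overlapping sites at most 1 per 1000 bases, the 8 most negative and 4 most positive differences for TET1-FL minus empty vector and 4 and 3 for the other comparisons, the 3 of smallest and largest SD, the 2 on each side of each bound, and the 3 closest pairs at 50 bases or more. Alternatives covered other level and distance bounds, centring, a logit scale, a replicate block, members chosen without the libraries compared, and each library left out. The scripts were tested on simulated data.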

Additional observations from a re-analysis of the deposited data

How the results depend on the processing

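The mean difference of the sparse sites kept its direction in each alternative run on all of the sites, and limma called 0 of them in each comparison under every alternative run. Leaving out libraries for the counts of non-overlapping sites, the subgroups and the single sites was added after seeing the data. TET1-FL minus empty vector was -0.840 when libraries were centred on the sites over 95% and -0.868 at the 100 sites with no neighbour, and -1.35 to -1.08 with 1 library left out. The ranges with 1 library left out were -0.549 to -0.145 for TET1-ALT minus empty vector and -1.04 to -0.641 for TET1-FL minus TET1-ALT. For sites whose libraries did not overlap these ranges were 23.02 to 25.8% lower and 3.62 to 4.68% higher for TET1-FL minus empty vector, 11.4 to 15.8% and 6.22 to 8.31% for TET1-ALT minus empty vector, and 15.8 to 19.9% and 4.09 to 5.99% for TET1-FL minus TET1-ALT. With fewer libraries in a group, fewer values have to lie apart. These ranges were computed for the sparse sites only, so no share over all sites can be set beside them. At the 100 sites with no neighbour 4% were wholly lower in TET1-ALT than in the empty vector, against 10.1% of all sites. TET1-FL was wholly above TET1-ALT at 4% of them, against 1.94% of all sites. Both shares rest on very few sites. The cause was not tested.

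Signs turned for some gaps near 0. The gap between sparse and dense sites for TET1-FL minus empty vector was -0.0767 to 0.00481 with 1 library left out, above 0 without the second TET1-FL library. The gap to sites near an unmethylated site was -0.0201 to 0.242 for TET1-FL minus empty vector and -0.0784 to 0.184 for TET1-ALT minus empty vector, in both cases lowest without the first empty vector library. At sites with no neighbour TET1-ALT minus empty vector was -0.331 to 0.297. It was 0.00148 without the first empty vector library, 0.180 without the third, and 0.297 without the third TET1-ALT library. The cause was not tested. Sites higher in TET1-FL than in the empty vector at an unadjusted p under 0.05 numbered 162 (1.73%, against 1.404% of all sites) without the first empty vector library and 156 (1.67%, against 1.34%) without the second, and 159 (1.70%, against 1.29%) were higher than in TET1-ALT without its first library.

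Site by site, replicate numbers showed no pairing of the libraries. Deviations from group means correlated at -0.027 to 0.015 between libraries of the same number and at -0.033 to 0.031 between others. A correlation over sites leaves out a shift shared by all sites of a library, so pairing of that kind was not tested. With a replicate block the mean differences were -1.19, -0.317 and -0.873, as without it by construction, and limma called 0 sparse sites in each comparison, with 1063 lower (11.4%, against 8.33% of all sites) and 124 higher (1.32%, against 1.23%) at an unadjusted p under 0.05 for TET1-FL minus empty vector.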

Other observations

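A few CCCGGG sites lie almost directly beside each other, and these were looked at after their values were seen. Of the 1851 pairs of sparse sites within 1000 bases, 14 were at most 50 bases apart, and in 4 of them (28.6%) the 9 values of one site all lay above those of the other. The median gap of these 14 pairs was 7.02 percentage points, against 3.74 over all pairs. At 228468477 on chromosome 1 the empty vector libraries read 93.6, 88.9 and 91.1%, TET1-ALT 94.0, 90.9 and 87.8%, and TET1-FL 90.2, 92.4 and 92.4%. At 228468483, 6 bases on, they read 80.7, 82.9 and 85.1%, then 82.4, 84.1 and 83.3%, then 80.4, 82.7 and 83.7%. The first site was above the second in every library. At 3220782 and 3220788 on chromosome 16, also 6 bases apart, the means over the 9 libraries were 82.6% and 93.4%, again without overlap but with the second site the higher.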
